A study of Sus scrofa with 9 samples.

Results

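Cyclins, cyclin-dependent kinases (CDKs), their inhibitors and other genes named for a role in the cell cycle were compared in testis biopsies of boars. The members were picked by gene name from the probe annotation of the array: cyclins A to L with a number, CDK, CDKN, CDC, MCM, PLK, AURK, BUB, E2F, TTK and MAD2L genes. This gave 54 genes on 105 probes, out of 5598 genes with a recognised symbol, and each gene was read on the probe with the highest mean in the authors' value table. The rule uses names and not measured differences, but it was set with earlier results of these data known. A name rule also takes in genes that mainly work elsewhere. Of these, the CDC42 GTPase and its effectors were kept as a group of their own. CDK5 and its partners were placed with the transcriptional and other CDKs, and the splicing factors CDC5L and CDC40 with the remaining members. The names CDK2A and PLK1S1 matched no symbol of the RefSeq gene table and are given as the array lists them. Of 28 core cell cycle genes listed for description, 12 had no probe under the rule: CCNA2, CCND1, CCNE1, CDK2, CDC25A, AURKC, CDKN1C, MAD2L1, BUB1, BUB1B, TTK and MCM2. Most of the spindle checkpoint and the cyclins A2, D1 and E1 were therefore not analysed here.

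Testis RNA was labelled with cyanine 3 and hybridised to 9 single-colour Agilent arrays, 3 per group. The control group has the chromosomal status 2n=38,XY and normal semen. The oligospermic group has the same karyotype and a low sperm count. The t(1;14) group carries trcp(1;14), a reciprocal translocation between chromosomes 1 and 14, and is oligo-astheno-teratospermic, that is, its spermatozoa are few, poorly motile and malformed. None of the groups has a treatment in the labels, and no age is given. The t(1;14) and oligospermic arrays each come from 1 boar, and the sources do not say which control boar each control array holds. The tests thus compare arrays, whose spread may be technical, and anything else that sets these animals apart cannot be told apart from the translocation. All 3 groups had 1 array on each of the 3 slides, and between 37087 and 40632 probes per array were well above background. Of the members, 52 were well above background on all arrays, the exceptions being CDC23 and PLK3, and 0 were saturated on any array.

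Cell cycle progression rests on CDKs, which act mainly when bound by a cyclin and are held back by inhibitors of the CDKN families. D-type cyclins with CDK4 open the way to DNA synthesis through the E2F transcription factors, MCM and CDC45 proteins unwind DNA at replication origins, and CDK1 with cyclins A and B, helped by polo-like and Aurora kinases, drives entry into division. The anaphase-promoting complex then ends it by having cyclins degraded. In the testis, spermatogonia divide by mitosis, spermatocytes pass through a long meiotic prophase before the meiotic divisions, which follow each other without DNA synthesis, and spermatids no longer divide. Cyclin A1 is largely a product of male meiosis.

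The first 30 bases of 60-base probes are shown, 5′ to 3′ as the array file lists them, for 6 genes on which the results turn: 4 calls that remained past the threshold under every alternative processing, and PLK1 and CDK1, which moved in opposite directions. No letter is capitalised because no part is singled out. The probes have no genome position here, since the authors' assembly was not used.
CDC42BPA: tatcgagtacctgttgtgttttaagagcat
CDKN1A: cacagtgccgagtatactgcaggtgctcaa
CDKN3: cgggacaaattagctgcacatctatcatca
CDK20: gcaaataggacagacattcctgaaaatcat
PLK1: agaagatcactctccttaagtatttccgaa
CDK1: ttcccacacgttgtatcaagaacagatagt

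Set against the control arrays, the t(1;14) arrays were higher in 7 members and lower in 10 at a limma adjusted p of 0.01 or less. Higher were CDKN1A, CCNG1, CDC42BPB, CDK1, CDC42, MCM3 and CDK16. Lower were E2F5, CDC42BPA, CDK5R1, CDK20, PLK1, CDKN3, PLK4, CDC42SE1, MCM8 and CDK5RAP2. Changes of this kind were common on these arrays: of 5555 genes with a symbol, 16.1% were higher and 19% lower at the same threshold, together 35.1%, against 31.5% of the members. With the methods' additional limit of 2 on the absolute log2 fold change, 0 members were higher, against 1.4% of the genes, and 2 were lower, E2F5 and CDC42BPA, against 5.44%. The share of members called thus lay near that of the genes with a symbol. The role lists described below hold few members each, too few to set against these shares. The median log2 fold change of the members was 0.02, beside 0.08 for the genes, and 27 members lay on either side of 0. In whole-tissue RNA, fewer cells of a type and less RNA per cell cannot be told apart. The number of calls changed when single arrays were left out, which also leaves fewer arrays to test. It was 6 without t(1;14) replicate 1 or without t(1;14) replicate 3 and 11 without t(1;14) replicate 2. Without control replicate 1, 2 or 3 it was 19, 11 and 13. E2F5, CDC42BPA, CDK20, CDKN3 and CDKN1A remained past the threshold under all 16 alternatives (10 processing choices and the 6 arrays left out in turn), while each of the other 12 calls was lost under 1 to 8 of them.

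**Figure D1:**
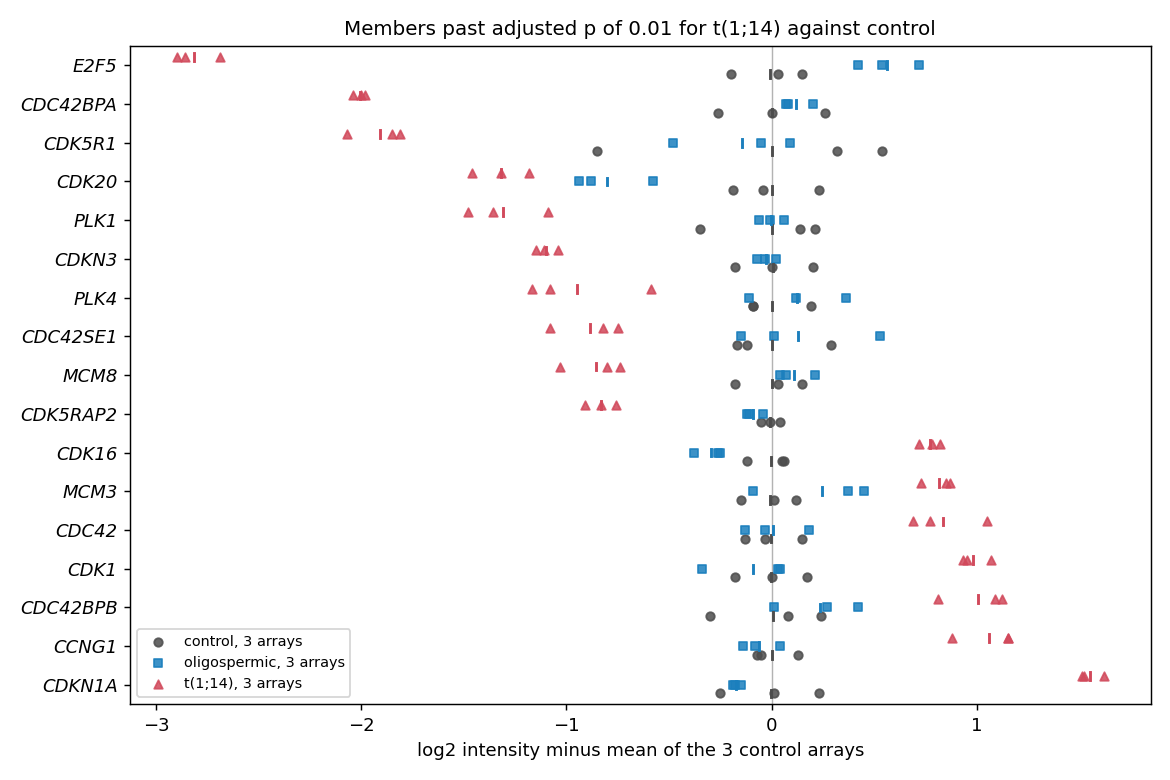
Log2 intensity of the 17 members past an adjusted p of 0.01 for t(1;14) against control, as the difference from the mean of the 3 control arrays. Each point is 1 array, short vertical lines are group means, circles are control, squares oligospermic and triangles t(1;14) arrays; for all 17 genes the triangles lie to one side of the circles, and for CDK16, CDK20 and E2F5 the squares also lie clear of the circles.

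Some marker lists of testis cell types also differed on the t(1;14) arrays, most clearly those of spermatids and Leydig cells. Of all genes with a symbol, 19% were lower and 16.1% higher against control at the adjusted p threshold. Of 19 spermatid markers, 9 had a probe, and 8 of these passed as lower in t(1;14), for example AKAP3 by a log2 fold change of -2.63 and ACRV1 by -2.40. Their summed intensity was 289040 to 318092 on the control arrays, 303982 to 315370 on the oligospermic arrays and 136714 to 149223 on the t(1;14) arrays. Of 9 Leydig cell markers, 8 had a probe and 6 of these were higher, among them STAR by 3.72, with a summed intensity of 61625 to 64834, 48945 to 64964 and 123624 to 132270 in the same order of groups. Both sums separated t(1;14) from the other 2 groups without overlap. The brightest Leydig marker, INSL3, was not among those that passed (log2 fold change 0.34, limma adjusted p = 0.0381). The 5 spermatocyte markers with a probe, of 20, summed to 38793 to 44009, 45593 to 46510 and 43317 to 44934, with HORMAD1 higher and SPO11 lower. Most of that sum is LDHC and CLGN, which did not pass (log2 fold changes -0.15 and 0.31), so it says little about the dimmer genes. For oligospermic against control SPO11 gave -2.14 (limma adjusted p = 0.0363). The 4 spermatogonial markers of 13 summed to 3548 to 5133, 3357 to 4435 and 6932 to 7458, with UCHL1 higher by 0.87. Sertoli markers (8 of 10) had 1 gene higher, INHA, and 1 lower, WT1, and summed to 12011 to 22131, 11260 to 16384 and 23173 to 24640. Most of that sum is the brightest gene, CLDN11 (log2 fold change 0.61, limma adjusted p = 0.11), and in mean log2 intensity of the list the t(1;14) arrays lay among the controls, at 8.56 to 8.67 beside 8.50 to 8.76. The 6 peritubular and vascular markers, of 8, summed to 14115 to 25745, 15132 to 22002 and 15242 to 20518, with PECAM1 and VWF higher and CNN1 lower, and the 3 immune markers, of 10, to 213 to 285, 216 to 241 and 278 to 302, with CD14 higher. The immune sums of t(1;14) and control overlapped. CD163 gave 0.50 (limma adjusted p = 0.162) and LYZ went the other way at -0.48 (limma adjusted p = 0.0899). Every marker with a probe was well above background on at least 1 array. The part of these shifts in the differences of the cell cycle genes was not tested.

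**Figure D2:**
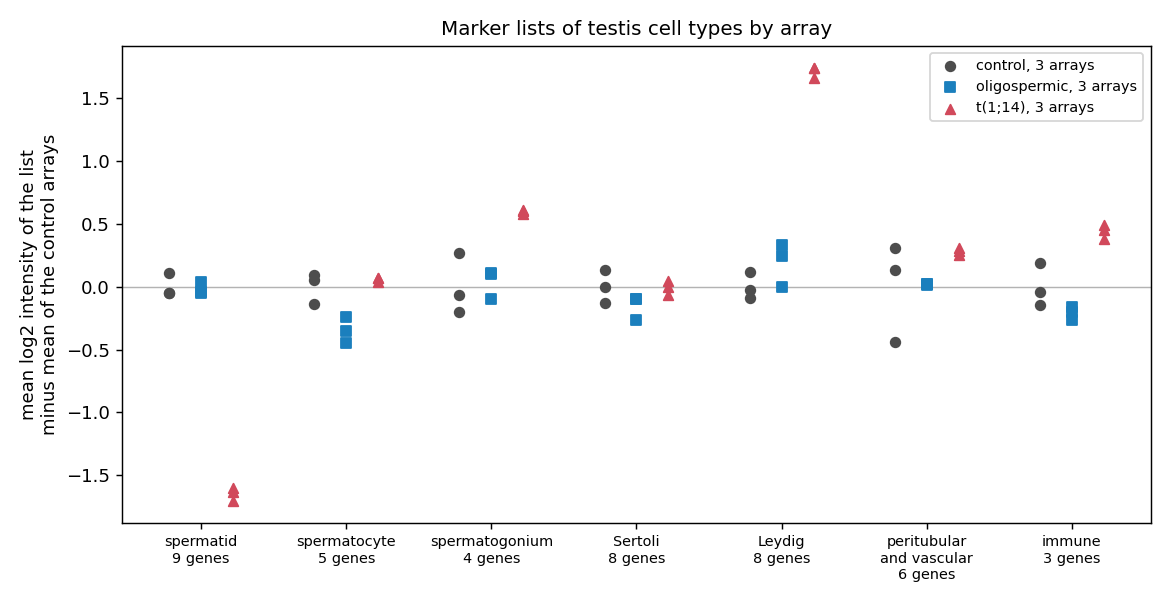
Mean log2 intensity of each marker list on each of the 9 arrays, as the difference from the mean of the 3 control arrays; the number of genes with a probe stands under each list. The t(1;14) arrays (triangles) lie below the other arrays for spermatid markers and above them for Leydig, spermatogonial and immune markers, while the spermatocyte and Sertoli points of t(1;14) lie among those of the controls. Of the immune markers, only CD14 passed against control.

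The genes of entry into mitosis and meiosis did not move as a block. Of 8 members, 1 was higher in t(1;14) (CDK1), 1 was lower (PLK1) and 6 did not pass, with a median log2 fold change of -0.27. CDK1, the kinase that drives entry into division, read 11.37, 11.02 and 11.20 in log2 intensity on control arrays 1 to 3, 11.24, 11.23 and 10.86 on the oligospermic arrays and 12.15, 12.13 and 12.27 on the t(1;14) arrays. The t(1;14) arrays all lay above the other 6, by a log2 fold change of 0.99 ± 0.13 (SE, n = 3 arrays per group, limma adjusted p = 0.00164), or 1.98-fold. A second CDK1 probe gave 1.01. PLK1, a polo-like kinase needed for spindle assembly and division, read 10.49, 11.05 and 10.98 on the control arrays, 10.78, 10.83 and 10.90 on the oligospermic arrays and 9.48, 9.75 and 9.36 on the t(1;14) arrays. All t(1;14) values of PLK1 lay below all others, with a log2 fold change of -1.31 ± 0.19 against control (limma adjusted p = 0.00243). With slide as a block the call of PLK1 was lost (limma adjusted p = 0.0112), the differences within slides 1 to 3 being -0.74, -1.69 and -1.50.

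None of the 3 cyclins of this group passed against control. CCNA1, the germ cell cyclin A1, read 13.41, 13.49 and 13.34 on the control arrays and 12.57, 12.99 and 12.63 on the t(1;14) arrays. The groups did not overlap, and the log2 fold change of -0.68 ± 0.15 missed the threshold narrowly (limma adjusted p = 0.0102). A CCNA1 probe of identical sequence gave -0.69 with an adjusted p of 0.00599, so this gene sits on the threshold. For CCNB1 the log2 fold change was -0.31 ± 0.14 (limma adjusted p = 0.102) and for CCNB2 -0.23 ± 0.14 (limma adjusted p = 0.221), both B-type cyclins, and neither passed. CDC25C, the phosphatase that activates CDK1, gave -0.18 ± 0.11 on the probe used for it (limma adjusted p = 0.221), while its other probes gave -0.55 and -0.93, the last with an adjusted p of 0.00196. Its call thus depended on the probe.

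The Aurora kinases, which build and correct the spindle, did not pass against control on the probes used. AURKA had overlapping groups and a log2 fold change of 0.12 ± 0.20 (limma adjusted p = 0.623). Its other probes gave -0.25 (limma adjusted p = 0.269) and -0.34 (limma adjusted p = 0.17). Whether the 2 kinases differ from each other was not tested. AURKB, the kinase of the chromosomal passenger complex, read 11.32, 12.20 and 11.99 on the control arrays and 10.93, 10.80 and 10.87 on the t(1;14) arrays. These did not overlap, yet the log2 fold change of -0.97 ± 0.24 did not pass (limma adjusted p = 0.0155), the control arrays being more spread than the t(1;14) arrays. Of its other probes, 1 gave -1.15 with an adjusted p of 0.00751.

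Among cyclins and kinases of G1 and S phase, 1 of 4 members passed. CCNG1, cyclin G1, read 11.95, 11.77 and 11.75 on the control arrays, 11.74, 11.86 and 11.68 on the oligospermic arrays and 12.97, 12.70 and 12.97 on the t(1;14) arrays. It was 2.08-fold higher in t(1;14) than in control, with no overlap (log2 fold change 1.06 ± 0.13, limma adjusted p = 0.00127). Its second probe gave 0.44 with an adjusted p of 0.0178. CDK4, the partner of D-type cyclins, gave 0.49 ± 0.13 (limma adjusted p = 0.0224). Its second probe, brighter on these arrays but not the one picked from the authors' values, gave 0.51 ± 0.18 (limma adjusted p = 0.0505). The D-type cyclins CCND2 and CCND3, which respond to growth signals, gave -0.35 ± 0.23 (limma adjusted p = 0.235) and -0.01 ± 0.35 (limma adjusted p = 0.987) and overlapped between t(1;14) and control.

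CDK inhibitors and binders held one of the clearest rises and one of the clearest falls, with 4 of 6 members not passing. CDKN1A, the CDK inhibitor p21, read 10.51, 10.29 and 10.03 on the control arrays, 10.09, 10.13 and 10.10 on the oligospermic arrays and 11.90, 11.79 and 11.80 on the t(1;14) arrays. The t(1;14) arrays lay more than a log2 unit above every other array, at 2.93-fold the control level (log2 fold change 1.55 ± 0.15, limma adjusted p = 4.9e-04). CDKN3, a phosphatase that removes the activating phosphate from CDKs, read 14.27, 14.65 and 14.45 on the control arrays, 14.47, 14.38 and 14.42 on the oligospermic arrays and 13.30, 13.34 and 13.41 on the t(1;14) arrays. It fell by 1.10 on the log2 scale with an SE of 0.13 (limma adjusted p = 0.00111), with no overlap. Of its 5 probes, 3 gave log2 fold changes between -1.16 and -1.10 and passed, and the 2 dimmest gave -0.38 and 0.24 and did not. CDKN1B, the inhibitor p27, gave 0.64 ± 0.15 with groups that did not overlap (limma adjusted p = 0.015). CDKN2D gave 0.12 ± 0.14 (limma adjusted p = 0.491), CDKN2B -0.28 ± 0.31 (limma adjusted p = 0.485) and CDK2AP1, a protein that binds CDK2, -0.05 ± 0.12 (limma adjusted p = 0.775). All 5 CDK2AP1 probes lay between -0.08 and 0.00.

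E2F5 gave the widest difference of the 54 members. This E2F factor, which mainly represses transcription together with pocket proteins, read 9.96, 10.08 and 9.73 on the control arrays, 10.35, 10.47 and 10.65 on the oligospermic arrays and 7.03, 7.07 and 7.24 on the t(1;14) arrays. The 3 groups were separate, with the oligospermic arrays highest. Against control the t(1;14) level was 7.04-fold lower (log2 fold change -2.81 ± 0.14, limma adjusted p = 1.2e-04), and over the 16 alternatives it lay between -2.91 and -2.29. E2F5 had 1 probe, so no second probe bears on it. E2F1, an activator of S phase genes, gave 0.41 ± 0.13 (limma adjusted p = 0.0407), and E2F8, an atypical repressor, -0.40 ± 0.19 (limma adjusted p = 0.117).

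Of 4 genes of DNA replication, MCM3 was higher and MCM8 lower. MCM3, a subunit of the replicative helicase, read 5.86, 5.70 and 5.97 on the control arrays, 6.30, 6.22 and 5.76 on the oligospermic arrays and 6.58, 6.72 and 6.70 on the t(1;14) arrays, without overlap (log2 fold change 0.82 ± 0.12, limma adjusted p = 0.00234). The call of MCM3 was lost under 4 of 16 alternatives. MCM4, another subunit, gave 0.10 ± 0.11 (limma adjusted p = 0.503) and CDC45, which activates the helicase, 0.29 ± 0.16 (limma adjusted p = 0.182). MCM8, which belongs to a separate helicase that works in recombination, including meiotic recombination, read 10.66, 10.99 and 10.87 on the control arrays, 10.91, 10.88 and 11.05 on the oligospermic arrays and 10.04, 9.81 and 10.10 on the t(1;14) arrays. Its t(1;14) values lay below all others (log2 fold change -0.85 ± 0.14, limma adjusted p = 0.0039), and the call was lost under 6 of 16 alternatives.

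All 4 MCM8 probes passed in the same direction but differed in size, and their first 30 bases are shown because the size depended on the probe. Probe 1, used for the gene, gave -0.85, probe 2 gave -2.03, probe 3 gave -0.88 and probe 4 gave -1.44. Which transcripts each probe detects was not analysed here.
MCM8 probe 1: attaccaagccagaccctcccgagttgctt
MCM8 probe 2: agagtttttctcttccagatggaaatataa
MCM8 probe 3: cggcagattgccaaagagctaaacattcag
MCM8 probe 4: gtaactctttcaaaagatagttcctctgga

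None of the members that act at the metaphase to anaphase transition passed against control. BUB3, the only spindle checkpoint gene measured, gave 0.21 ± 0.14 (limma adjusted p = 0.253), and another, dimmer BUB3 probe gave 1.10 with an adjusted p of 0.0251. CDC20, the activator of the anaphase-promoting complex, gave -0.16 ± 0.13 (limma adjusted p = 0.35). Its subunits CDC16, CDC23 and CDC27 gave 0.37, 0.04 and 0.31, and the exit phosphatase CDC14B gave 0.29. On the probes used, 4 of these 5 genes had a positive sign and 0 were called. The sign depended on the probe for CDC27, whose other probe gave -0.56 (limma adjusted p = 0.0252), and for CDC14B, whose other probe gave -0.17. The other CDC16 probe gave 0.22.

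Of 3 other polo-like kinases, PLK4 was lower. PLK4, which starts centriole duplication, read 9.12, 8.84 and 8.84 on the control arrays, 9.29, 8.82 and 9.05 on the oligospermic arrays and 7.85, 8.34 and 7.76 on the t(1;14) arrays, again without overlap (log2 fold change -0.95 ± 0.19, limma adjusted p = 0.00745). It had 1 probe, and its call was lost under 7 of 16 alternatives. PLK2 gave -0.03 ± 0.13 (limma adjusted p = 0.874) and PLK3 0.43 ± 0.23 (limma adjusted p = 0.16), both kinases of stress responses. PLK3 was near background, being well above it on 2 of 3 arrays in each group.

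Transcriptional and other CDKs held 3 lower genes and 1 higher gene among 9, beside 19% lower and 16.1% higher of the genes with a symbol. CDK20 (also called cell cycle-related kinase) read 11.88, 12.03 and 12.30 on the control arrays, 11.13, 11.19 and 11.49 on the oligospermic arrays and 10.89, 10.61 and 10.75 on the t(1;14) arrays. The 3 groups did not overlap, and t(1;14) was 2.50-fold below control (log2 fold change -1.32 ± 0.15, limma adjusted p = 9.2e-04). Neither comparison with the oligospermic arrays passed. For t(1;14) against oligospermic CDK20 gave -0.52 ± 0.13 (limma adjusted p = 0.0136), and for oligospermic against control -0.80 ± 0.17 (limma adjusted p = 0.188). CDK5R1, the activator of CDK5, read 8.60, 8.38 and 7.21 on the control arrays and 6.25, 6.21 and 5.99 on the t(1;14) arrays. It fell by 1.92 on the log2 scale with an SE of 0.36 (limma adjusted p = 0.00607), control array 3 lying about a log2 unit below the other control arrays, and the call was lost under 8 of 16 alternatives, among them slide as a block (limma adjusted p = 0.0121). CDK5RAP2, a centrosome protein that binds CDK5R1, read 14.13, 14.04 and 14.08 on the control arrays and 13.26, 13.33 and 13.18 on the t(1;14) arrays, a log2 fold change of -0.83 ± 0.10 (limma adjusted p = 0.00136). All 4 of its probes passed, with log2 fold changes from -1.15 to -0.83. CDK16, a kinase that with cyclin Y is required for sperm development in mice, rose from 11.88, 11.89 and 11.71 on the control arrays to 12.61, 12.65 and 12.55 on the t(1;14) arrays (log2 fold change 0.77 ± 0.11, limma adjusted p = 0.0021). CDK9, the kinase that releases paused RNA polymerase II, gave 0.55 ± 0.14 (limma adjusted p = 0.0165), CDK10 gave 0.49 ± 0.17 (limma adjusted p = 0.05) and CDK5 gave 0.47 ± 0.17 (limma adjusted p = 0.062), none of them past the threshold.

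The CDC42 group, genes of a small GTPase that organises actin and cell polarity, had 4 of 5 members called, 2 in each direction. Of all genes with a symbol, 35.1% were called, and 5 members are too few to set against that share. Of the 4 calls, those of CDC42 and CDC42BPB were each lost under 6 of 16 alternatives and that of CDC42SE1 under 7. CDC42 itself read 10.19, 9.91 and 10.01 on the control arrays, 10.22, 10.01 and 9.91 on the oligospermic arrays and 10.73, 11.09 and 10.81 on the t(1;14) arrays (log2 fold change 0.84 ± 0.15, limma adjusted p = 0.00444). All 3 CDC42 probes passed. CDC42BPA and CDC42BPB, related kinases that bind CDC42, went opposite ways. CDC42BPA read 11.85, 12.11 and 12.37 on the control arrays, 12.18, 12.19 and 12.31 on the oligospermic arrays and 10.07, 10.11 and 10.13 on the t(1;14) arrays, 4.02-fold lower in t(1;14) (log2 fold change -2.01 ± 0.16, limma adjusted p = 2.3e-04), and its second probe gave -1.98. CDC42BPB read 8.65, 9.03 and 9.19 on the control arrays and 10.04, 9.76 and 10.07 on the t(1;14) arrays, 2.01-fold higher (log2 fold change 1.01 ± 0.18, limma adjusted p = 0.00497). Neither pair of groups overlapped. Of the 4 tested CDC42BPB probes, 2 passed. CDC42SE1, a small effector, gave -0.88 ± 0.17 (limma adjusted p = 0.00657), and CDC42EP1, an effector that shapes actin, gave 0.97 ± 0.29 (limma adjusted p = 0.0317). The remaining 6 members did not pass against control; CDC37, which delivers kinases to the HSP90 chaperone, gave -0.71 ± 0.21 (limma adjusted p = 0.0318) and CDC5L -0.09 ± 0.12 (limma adjusted p = 0.542).

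**Figure D3:**
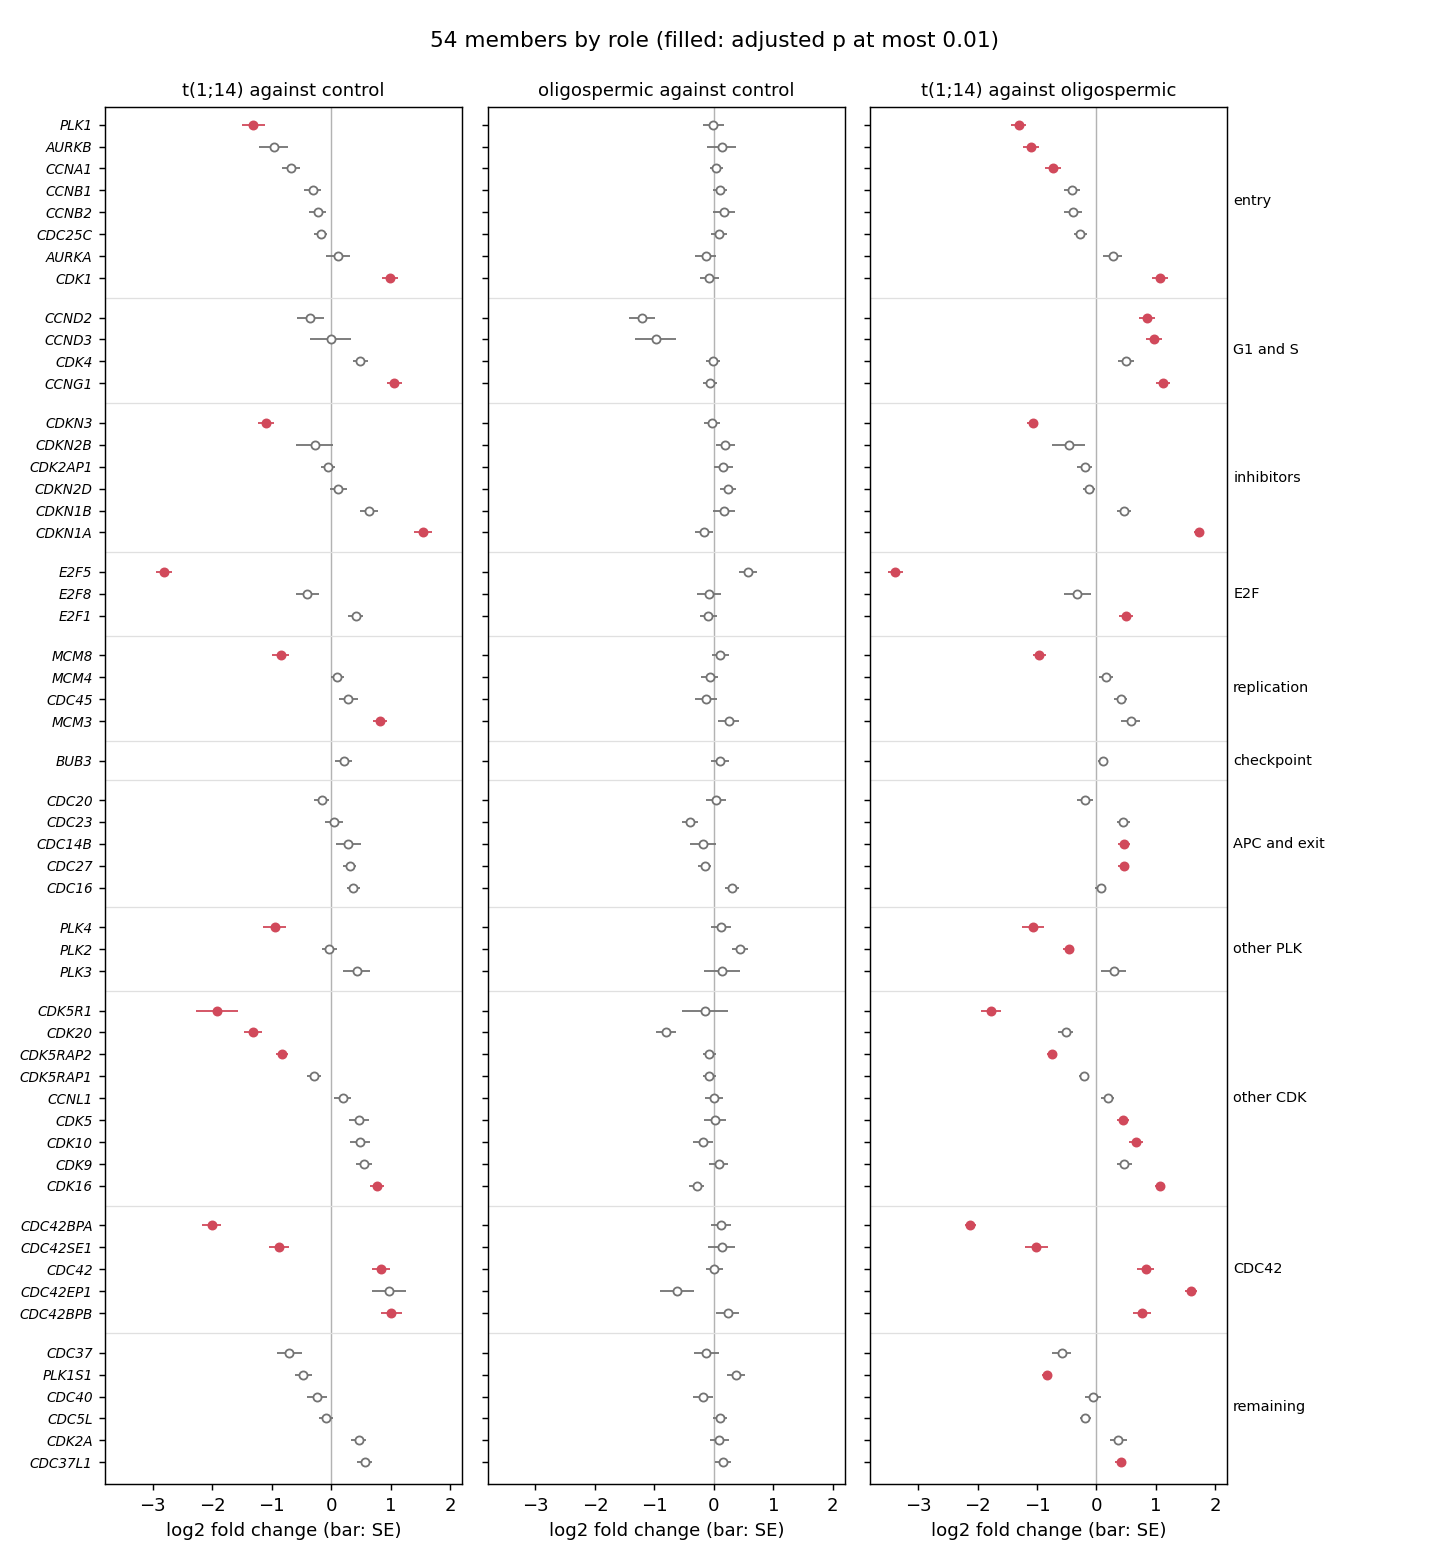
Log2 fold changes of all 54 members in the 3 comparisons, grouped by role, with the standard error as a bar; filled points have an adjusted p of at most 0.01. The panels for t(1;14) hold 17 and 28 filled points on both sides of 0, and the panel of oligospermic against control holds 0.

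Between the oligospermic and the control arrays, which both have a normal karyotype, limma called 0 of the 54 members at the adjusted p threshold of 0.01 and 0 at 0.05. This is also what most genes showed: 0.0361% of 5534 genes with a symbol were higher and 0.0181% lower, and with the fold limit 0.0181% each way. At an unadjusted p under 0.05, 8 members passed, and the smallest adjusted p was 0.141. That value belonged to CCND2, which read 9.59, 10.32 and 9.64 on the control arrays and 8.76, 8.67 and 8.50 on the oligospermic arrays, without overlap (log2 fold change -1.21 ± 0.22). CCND3 read 5.78, 5.37 and 6.75 on the control arrays and 4.95, 4.87 and 5.15 on the oligospermic arrays, also without overlap (-0.98 ± 0.34, limma adjusted p = 0.421). E2F5 gave 0.57 ± 0.15 (limma adjusted p = 0.278) and CDK20 -0.80 ± 0.17 (limma adjusted p = 0.188). In all, 11 members had groups that did not overlap, beside 17.1% of genes with a symbol. The 0 calls do not show that the groups were alike: on simulated data this comparison recovered 0% of probes with a log2 change of 1 and 52% of those with a log2 change of 2.

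The t(1;14) and the oligospermic arrays, both of boars with impaired semen, differed in 28 members, 15 higher and 13 lower in t(1;14). Genes with a symbol were higher in 27.8% and lower in 26.3%, together 54.1%, against 51.9% of the members. Past both thresholds were 0 higher and 2 lower members, beside 1.98% and 5.96% of the genes. The count was 18 without t(1;14) replicate 1, without t(1;14) replicate 3 or without oligospermic replicate 3. Both comparisons use the same t(1;14) arrays, so they are not independent, and their values stand side by side here: E2F5 gave -3.38 against oligospermic and -2.81 against control, CDC42BPA -2.12 and -2.01, CDKN1A 1.72 and 1.55, and CDK1 1.07 and 0.99.

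Of the 28, 15 were also called against control and 13 were not. The 2 members called against control only were CDK20 and MCM3. Whether the effects differ between the comparisons was not tested. The median SD of log2 intensity over 41105 probes was 0.177 among the oligospermic arrays and 0.242 among the control arrays. CDC42EP1 read 6.85, 6.99 and 6.88 on the oligospermic arrays and 8.39, 8.58 and 8.51 on the t(1;14) arrays, a log2 fold change of 1.59 ± 0.10 (limma adjusted p = 3.9e-05), while its control arrays were spread over 6.90, 7.61 and 8.06. AURKB gave -1.10 ± 0.13 (limma adjusted p = 4.8e-04), PLK1S1 -0.84 ± 0.08 (limma adjusted p = 2.2e-04) and CCNA1 -0.73 ± 0.13 (limma adjusted p = 0.00328). The D-type cyclins were higher in t(1;14) than in oligospermic: CCND2 read 9.45, 9.70 and 9.34 against the oligospermic values given above (0.85 ± 0.13, limma adjusted p = 0.00158), and CCND3 read 6.17, 5.74 and 5.96 (0.97 ± 0.14, limma adjusted p = 0.00129). For both, the t(1;14) values lay within the range of the control arrays or overlapped it, and the oligospermic values were the lowest. CDK10 gave 0.67 ± 0.12 (limma adjusted p = 0.00277), PLK2 -0.47 ± 0.09 (limma adjusted p = 0.00493) and E2F1 0.50 ± 0.12 (limma adjusted p = 0.00851). CDC27, CDC14B, CDK5 and CDC37L1 made up the rest, with log2 fold changes from 0.41 to 0.46. These 4 calls held under only 7 (CDC14B) or 8 of 16 alternatives, and the other CDC14B probe gave 0.03 (limma adjusted p = 0.853). The calls of E2F1 and PLK2 likewise held under only 7 and 8, and those of CCNA1 and CDK10 under 11 each. Of the 28 calls, 15 remained under all 16 alternatives, and each of the other 13 was lost or reversed under 1 to 9 of them.

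Groups of arrays that did not overlap were frequent in both comparisons with t(1;14): 36 members against control, beside 66% of genes with a symbol, and 41 against oligospermic, beside 75%. With slide as a block, 15 of the 17 calls against control remained, and those of PLK1 and CDK5R1 were lost.

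Probes of the same gene gave a further look at these values. Of the 27 members with several probes, 8 were called against control, and for 5 of these every tested probe passed. Against oligospermic 16 were called, and for 11, CCND3 among them, every tested probe passed. No member had probes called in opposite directions in either comparison. Probe pairs of identical sequence (BUB3, CCNA1, CDK5RAP2 and PLK1S1) differed by at most 0.18 on any array, so the spots themselves repeated closely. Larger differences arose between probes of different sequence. CDC27 had 1 probe at 0.46, called against oligospermic, and 1 at -0.53, and E2F1 had 1 at 0.50 and 1 at -0.29, so the direction of these 2 genes depended on the probe. The second CCND3 probe was not well above background on any oligospermic array and is not set against the first.

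Chromosomes were taken from the RefSeq gene table, which is of a later assembly than the authors used, so no coordinates are given. Of 7 members on chromosome 1, CDKN3 and CDK5RAP2 were lower in t(1;14) than in control and 0 were higher; of 537 tested genes with a symbol there, 132 were lower and 82 higher. Of 5 members on chromosome 14, CDK1 was higher and CDK20 lower; of 571 genes there, 127 were lower and 86 higher. CDK16, the only member on chromosome X, was higher; of 195 genes there, 68 were higher and 24 lower. CCNB2, CDC37L1, CDC40, CDK9 and CDKN2B on chromosome 1 and BUB3, CDC45 and CDK2AP1 on chromosome 14 did not pass. The numbers of members are too small to set against those of the chromosomes.

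Other genes of the cell cycle outside the name rule, from a list of 75, were read where they had a probe, which 29 did. Against control, 5 of the 29 were higher and 5 lower in t(1;14), near the 35.1% of genes with a symbol called in either direction. Higher were GADD45G (log2 fold change 1.89), a stress-induced inhibitor of CDK1, CCNC (1.39), the cyclin of the Mediator kinase, ORC4 (1.00), a subunit that marks replication origins, PCNA (0.98), the sliding clamp of DNA polymerase, and CKS1B (0.53), a small CDK subunit. Lower were FZR1 (-1.62), an activator of the anaphase-promoting complex, ANAPC5, a subunit of it (2.00-fold lower, limma adjusted p = 0.00349), BIRC5 (-0.74), the survivin of the chromosomal passenger complex to which AURKB belongs, KIF23 (-0.64), a kinesin of cell separation, and CCNK (-0.57), a transcriptional cyclin. MKI67, the proliferation marker Ki-67, gave 0.11 with a limma adjusted p of 0.562. The 19 genes that did not pass lay between -1.06 (MYBL1) and 0.60 (ORC3). The median of the 29 was 0.12. Against oligospermic, 11 were higher and 6 lower, beside 54.1% of genes with a symbol called, and oligospermic against control had 0 of 29 called.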

How the data were processed

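Testis RNA of 3 groups was measured on 9 single-colour Agilent arrays, grouped by the labels. The authors labelled the RNA with cyanine 3 and scanned a custom porcine array. They deposited spot values from Agilent Feature Extraction in intensity units, background-subtracted and detrended by that software, not normalized between arrays. A second deposited file holds log2 values, for 38759 of the 60889 probes, normalized over the 9 arrays; these were used here to choose the probe of each gene and as an alternative source. The genome build of the probe design was not used.

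All 9 arrays were quantile normalized together, on the log2 of the processed intensity, with limma 3.58.1 (R 4.3.3, with the data.table package in version 1.17.8, pandas 2.3.3 and matplotlib 3.10.9). Tested probes had a signal well above background and no outlier flag on 2 or more of the 3 arrays of either group compared. These were 40643 probes for t(1;14) and control, 39713 for oligospermic and control, and 40567 for t(1;14) and oligospermic. Each comparison was fitted on its 6 arrays with lmFit and eBayes, and p was adjusted by Benjamini-Hochberg over all tested probes. A member was called at an adjusted p of at most 0.01; the second threshold, from the authors' methods, is a log2 fold change of 2 or more in size. Precision is limited by the 3 arrays per group.

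Of the 54 members, 52 matched a RefSeq symbol. The members, role lists and marker lists were chosen with earlier results of these data known. The rule for named genes took members past both thresholds, the 10 largest called changes per direction and comparison without overlap, the 2 brightest of each role list, 28 core genes, and genes with probes called both ways, 39 genes in all; CDC14B, CDC23, CDC27, CDC37, CDC37L1, CDC40, CDK2A, CDK2AP1, CDK5, CDK9, CDKN2B, E2F8 and PLK3 were named beyond it after their values were seen, as were the pathway and marker genes. Of the pathway list, the genes called against control, MKI67 and the ends of the range of the rest are named; 1 gene of it is left out by name.

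Alternatives were scaling by the 75 percentile, quantile normalization over 6 arrays, normexp with an offset of 50, no filter, a filter in both groups, 1 model of all 9 arrays, slide or replicate number as a block, the authors' log2 values, the median probe per gene, other thresholds, and leaving out each array. Same-numbered arrays of t(1;14) and control deviated with correlations of -0.285, -0.194 and 0.139, and of t(1;14) and oligospermic with -0.421, -0.335 and 0.121, so the numbers do not pair them; for oligospermic and control the number is the slide, with 0.478, 0.136 and 0.101. Arrays of the same slide correlated at 0.339, 0.109 and 0.119 for t(1;14) and control and at 0.489, 0.292 and 0.33 for t(1;14) and oligospermic. The fit was tested on simulated data: of the probes given a log2 change of 2, 58.5% were recovered in the comparison of t(1;14) and control (40643 probes), 52% in that of oligospermic and control (39713) and 73% in that of t(1;14) and oligospermic (40567). Few probes were changed in the simulation, so its adjusted p is stricter than on arrays where many probes differ.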

Additional observations from a re-analysis of the deposited data

How the results depend on the processing

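The count of members called for t(1;14) against control, 17 as reported, lay between 13 and 23 under other scalings, filters, sources, models and probe choices and was 15 with slide as a block, where PLK1 (adjusted p = 0.0112) and CDK5R1 (0.0121) were lost. It was 7 with the replicate block and 29 at an adjusted p of at most 0.05; the replicate numbers do not pair these arrays. Leaving out single arrays gave 6 to 19 calls (6 without t(1;14) replicate 1 or 3, 11 without t(1;14) replicate 2 or control replicate 2). Past both thresholds, 2 became 1 with quantile normalization over 6 arrays, with normexp and with the authors' log2 values, 1 to 2 in leave-one-out (1 without t(1;14) replicate 1), and 9 with a fold limit of 1. For t(1;14) against oligospermic, 28 became 16 with the replicate block, 18 to 28 in leave-one-out (18 without oligospermic replicate 3 or t(1;14) replicate 1 or 3), and 24 to 33 under the other processing alternatives; the 2 past both thresholds became 13 with a fold limit of 1 and stayed 2 otherwise. Oligospermic against control had 0 calls in every alternative run, the paired fit with the replicate block included. Taking the median probe per gene reversed CDC27 to -0.53 and E2F1 to -0.29 against oligospermic. The causes were not tested. Over all alternatives, 58 of 864 values of t(1;14) against control lost a call and 18 gained one, and 74 and 25 of 863 did so against oligospermic.

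With 3 arrays per group, members that did not pass may still differ. Simulated recovery of a log2 change of 1 (0% for t(1;14) against control, 16% against oligospermic) understates the power of these comparisons, since few probes were changed in the simulation and smaller changes such as that of CDK16 (0.77) were called in the data. All arrays of t(1;14) and of the oligospermic group come from 1 boar each. Differences between animals, in cell composition or in the RNA of each cell cannot be told apart in these data, and the array gives no level of 1 gene against another.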
